A study of Mus musculus with 5 samples.

Results

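The comparison described here sets the methylation of mouse embryonic stem (ES) cells without Ezh2 (Ezh2 -/-) against that of wild-type (WT) ES cells. Its members are 8552 windows of 1 kb on mouse build mm9, of 22601 windows that reached the same minimums in at least 1 of the 5 libraries of the series. A window was kept when both libraries had at least 5 CpGs with a read and at least 30 reads at CpGs, with CpGs inside CCGG left out because that is the site at which the enzyme MspI cuts and fragments end. The level of a window is the share of reads that still showed a cytosine after bisulfite treatment, summed over its CpGs. The choice used read depth only, so no level entered it.

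The assay was reduced representation bisulfite sequencing (RRBS), in which MspI fragments rich in CpG are converted with bisulfite and sequenced. The 2 libraries compared are WT, of strain C57BL/6J, grown on inactivated mouse embryonic fibroblasts in serum with LIF and depleted of the feeder cells before harvest, at passage 17, and Ezh2 -/-, grown in serum with LIF, for which the labels give neither strain nor passage nor feeder cells. Fbxl10 T/T, Ring1B -/- and Eed -/- are the other genotypes, with 1 library each. Fbxl10 T/T carries the strain and passage of WT, and the Ring1B -/- and Eed -/- labels name no strain. Genotype, strain, culture and library therefore cannot be told apart in any single difference below, and with 1 library per genotype every test compares the reads of 2 libraries and carries no spread between cultures. How the Ezh2 allele was made, and whether the cells are 1 clone, is not given in the sources used here.

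Ezh2 is the methyltransferase of Polycomb repressive complex 2 (PRC2), which places the repressive mark H3K27me3, and Eed is the subunit that reads this mark and is needed for the activity of the complex. In ES cells PRC2 sits mainly on unmethylated CpG islands of developmental regulators. DNA methylation at CpGs is laid down by the Dnmt3 enzymes and copied by Dnmt1, is low at CpG islands and high elsewhere, and marks 1 parental copy at imprint control regions.

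The windows on which the results turn are shown by the stretches below. All are the + strand of mm9 as spelled out base by base in the deposited tables, 5′ to 3′, and capitals mark the CpGs with reads in both libraries, except in the chromosome 14 stretch, where they mark only the CpG that carried the methylated reads of Ezh2 -/-. The first 3 come from imprinted loci, the next from the promoter of a meiotic gene, the next from the largest fall and the last 2 from rises. The Grb10 and chromosome 14 stretches were chosen after their values were seen.
Plagl1, chr10:12810790-12810819: atCGgagatctgaCGgCGaCGcctgagtcc
Commd1 and Zrsr1, chr11:22872816-22872841: ttgCGcaggctggcagtaccaCGgat
Grb10 region, chr11:11926340-11926417: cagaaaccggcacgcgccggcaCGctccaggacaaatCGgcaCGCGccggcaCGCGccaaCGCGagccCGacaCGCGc
Sycp1, chr3:102740075-102740102: atctCGCGCGcagcacttctCGCGagat
Largest fall, chr12:92886613-92886662: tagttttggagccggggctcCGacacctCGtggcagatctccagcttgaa
Largest rise, chr1:19204357-19204435: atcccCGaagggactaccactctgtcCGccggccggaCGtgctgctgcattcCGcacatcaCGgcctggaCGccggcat
Rise on chromosome 14, chr14:57396909-57396938: cgctctctccggccgcCGactccagggcgc

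Over the capital CpGs of the Plagl1 stretch, 108 of 228 WT reads showed a cytosine (47.4%) and 0 of 28 Ezh2 -/- reads did, with a 95% Wilson interval of 0 to 12.1%. In the Commd1 and Zrsr1 stretch it was 122 of 299 WT reads (40.8%) and 0 of 20 Ezh2 -/- reads. A read is counted here at each CpG it covers. The 28 counts at Plagl1 are 7 at each of 4 CpGs, and the 20 are 10 at each of 2 CpGs. They may be the same reads counted again, so the interval is too narrow. The Sycp1 stretch read 82.9% in WT and 47.6% in Ezh2 -/-, on 10 of 21 reads. In the stretch of the largest rise 94 of 255 WT reads were methylated (36.9%) against 13 of 18 in Ezh2 -/- (72.2%).

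The windows held 16237447 reads at CpGs in WT and 692655 in Ezh2 -/-, 1 for every CpG that a sequenced fragment read crosses. The median window had 1469 reads in WT and 60 in Ezh2 -/- (quartiles 42 and 93), the latter spread over 15 CpGs at 4.2 reads each. Non-CpG cytosines, taken as the background of unconverted cytosines, read 1.02% in WT and 2.10% in Ezh2 -/-, and levels called corrected have this background of the library removed. Without cytosines before A the values were 0.709% and 2.11%, and over the windows compared all non-CpG cytosines read 0.579% and 1.95%. The WT background may therefore hold some methylation, which the correction would remove. The promoters of 8461 genes could be placed on mm9 by matching RefSeq promoter sequences (GRCm38, 250 bases before to 50 after the start site) to the bases in the tables, and 4091 of the windows overlap such a promoter. Of the markers fixed to check the cells, 8 of ES cells and 5 of fibroblasts, none lay in a window measured in both libraries, so the label could not be checked on them; Klf2, Klf4 and Twist2 from the gene lists are given at the end.

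In Ezh2 -/- cells nearly all windows that were low in WT stayed low, and windows that were methylated in WT had less methylation. Each window was tested by Fisher's exact test on its reads (two-sided), p-values were adjusted by Benjamini and Hochberg's method over the 8552, and a call needed both an adjusted p under 0.05 and a corrected difference of 20 points or more. By this rule 77 windows were lower in Ezh2 -/- (0.9%) and 20 were higher (0.234%), and 7335 windows (85.8%) lay within 5 points of WT. Over all windows the reads gave 2.80% in WT (95% Wilson interval 2.79 to 2.81%) and 3.21% in Ezh2 -/- (3.17 to 3.25%), which became 1.80% and 1.13% after correction. The median window difference was -1.35 points corrected (95% interval over windows -1.40 to -1.29) and -0.236 points uncorrected, so its size rests on the background values of the 2 libraries.

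The excess of falls held at 20 and at 30 points and not below. At 30 points 37 windows were lower and 5 higher. At 10 points 102 were lower and 125 higher, and with no minimum of size 122 were lower and 547 higher at an adjusted p under 0.05. The test is on uncorrected reads, and the background of Ezh2 -/- was the higher of the 2, as given above. Its part in the small rises was not tested. Counting each read once per MspI fragment, a setting added after seeing the data, left 18 of the 77 falls and 6 of the 20 rises called, on a median of 22 Ezh2 -/- reads a window. For each fragment this count takes the highest read number at any of its CpGs. Reads that cover only other CpGs of the fragment are missed, so it is a lower limit. Thinning WT to the depth of Ezh2 -/- left 25 of the 77 and 7 of the 20.

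**Figure D1:**
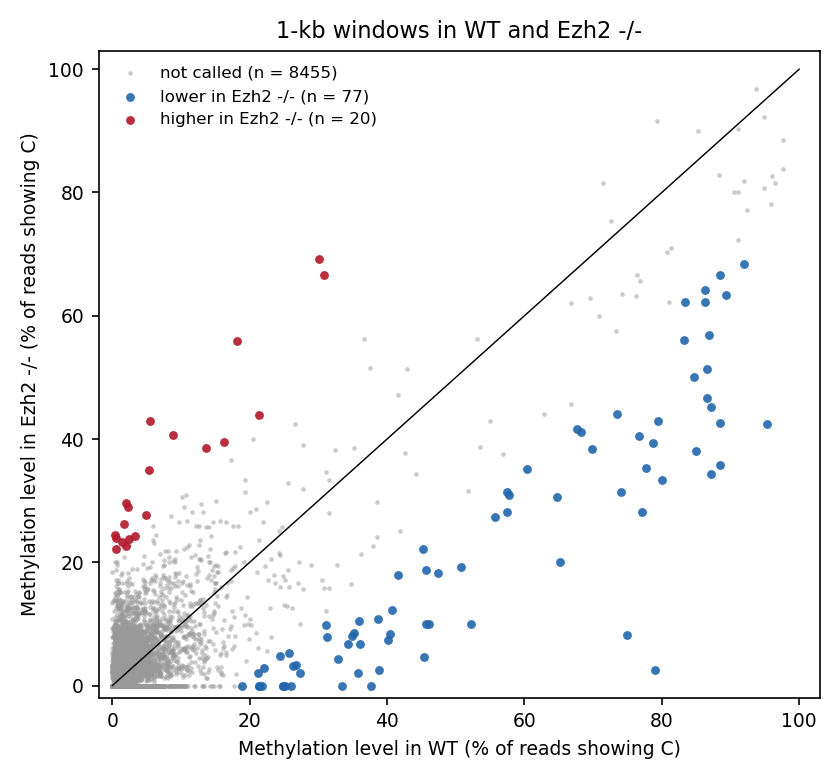
Level of each of the 8552 windows in WT (x axis, % of reads showing C, uncorrected) and in Ezh2 -/- (y axis, same unit), with the line of equal levels. The 77 windows called lower (blue) lie along the whole range of WT levels from 18.8% up, and the 20 called higher (red) lie mostly at WT levels under 10%.

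Loss followed the level that a window had in WT. Of the 8161 windows under 10% in WT, 14 were called higher (0.172%) and none lower, and their mean corrected level was 1.11% in WT and 0.690% in Ezh2 -/-. None of these windows could be called lower, because their WT level is below the difference that a call needs. In the 270 windows at 10 to 30% the mean was 15.4% in WT and 10.9% in Ezh2 -/-, with 5 called higher and 15 lower. Windows in the lower part of this class could not be called lower either. The 66 windows at 30 to 70% averaged 44.1% in WT and 24.2% in Ezh2 -/-, and 35 of them (53.0%) were called lower against 1 higher. The 55 windows at 70% or more averaged 84.6% in WT and 60.2% in Ezh2 -/-, with 27 (49.1%) called lower and none higher. At a mean of 84.6% there was little room for a rise of the size that a call needs. Of the 121 windows at 30% or more, 106 had the lower value in Ezh2 -/-, whether called or not.

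Classes set by the WT reads move with the counting error of WT, so the windows were also classed by their level in Eed -/-, whose reads enter neither side of the difference. Among windows at 30 to 70% in Eed -/-, 33 in number, the mean was 46.3% in WT and 30.3% in Ezh2 -/-, and 12 were called lower and 1 higher. The 15 windows at 70% or more in Eed -/- averaged 81.2% in WT and 62.2% in Ezh2 -/-, with 7 called lower and 1 higher. The 5 libraries together covered 53 windows at 30% or more in WT, with a mean of 37.3% in Ezh2 -/-, 43.2% in Eed -/-, 54.3% in Ring1B -/-, 70.9% in Fbxl10 T/T and 59.1% in WT. These means share the WT classes and are given side by side.

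**Figure D2:**
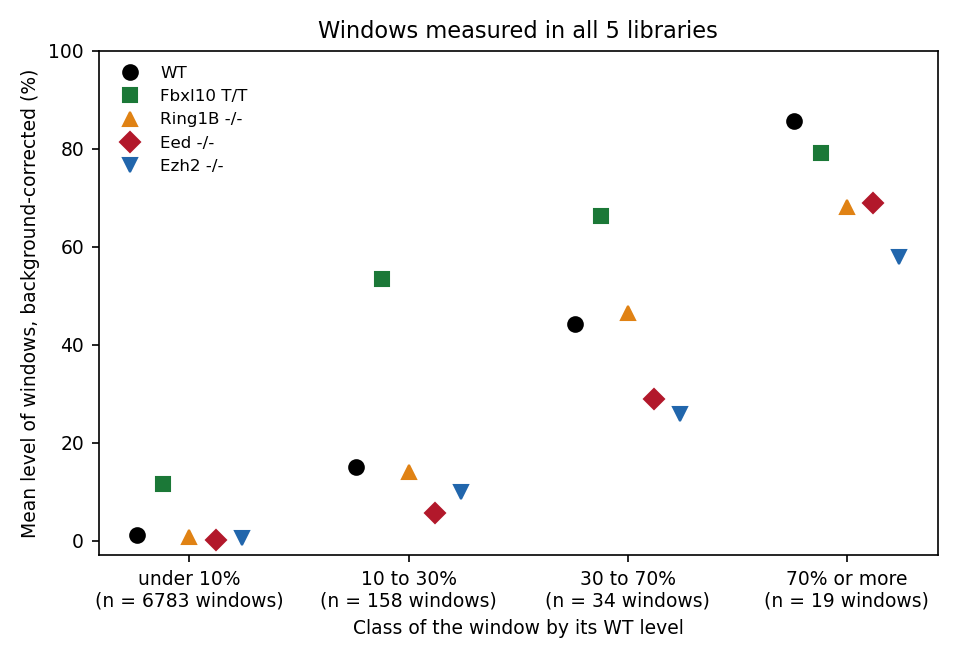
Mean corrected level (y axis, %) of windows measured in all 5 libraries, by class of WT level (x axis), 1 point per library. Ezh2 -/- lies below WT in each class, at 25.9% against 44.3% in the class at 30 to 70% and at 57.8% against 85.6% in the class at 70% or more. Eed -/- also lies below WT in each class, at 28.9% and 68.9% in these classes, and it is below Ezh2 -/- in the classes under 10% and at 10 to 30%. Ring1B -/- is below WT in all classes but that at 30 to 70%, and Fbxl10 T/T only at 70% or more.

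Falls were found mainly in windows with few CpGs listed in WT, a number that counts CpGs outside CCGG with a read and so depends on coverage too. Of the 424 windows with fewer than 10 CpGs listed in WT, 33 (7.78%) were lower, of the 1976 with 10 to 19 CpGs 35 (1.77%), of the 3881 with 20 to 39 CpGs 9 (0.232%), and of the 1654 with 40 to 59 and the 617 with 60 or more none. The mean WT level followed the same order, from 13.3% in the first of these classes to 0.711% in the last. Only 6 of the 1654 windows and 0 of the 617 were at 10% or more in WT, so these could hold almost no fall of 20 points. The number of CpGs was not compared at equal WT level. Windows on a placed promoter gave 13 falls and 7 rises of 4091, and the other 4461 windows gave 64 falls and 13 rises. At 30% or more in WT the promoter windows were 10 in number, averaging 53.8% in WT and 25.3% in Ezh2 -/-, all 10 lower in value and 6 called. Chromosome 11 held 16 of the 77 falls among its 816 windows (1.96%) and chromosome 7 held 10 among 495 (2.02%), beside 0.9% over all windows. Chromosomes 14, 19 and X held none among 264, 284 and 82 windows. Windows at 10% or more in WT numbered 53 and 34 on chromosomes 11 and 7, and 8, 7 and 4 on chromosomes 14, 19 and X. A difference between chromosomes was not tested. Reads per chromosome were taken over all CpGs outside CCGG, inside the windows or not. Their share in Ezh2 -/-, as a ratio to that in WT, ran from 0.842 on chromosome 6 to 1.21 on chromosome 3.

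The largest fall was in the window chr12:92886001-92887000, whose nearest placed start site is that of Gtf2a1, 57.1 kb away. It read 78.9% in WT (75.7 to 81.9%, 660 reads) and 2.56% in Ezh2 -/- (0.454 to 13.2%, 39 reads), a corrected difference of -78.3 points (Fisher's exact test, adjusted p 3.12e-20). All 8 CpGs with reads in both libraries were lower in Ezh2 -/-, at most 9.09% there and at least 73.9% in WT. Eed -/- read 21.2% and Fbxl10 T/T 84.9% in the same window. The 95% intervals of WT and Ezh2 -/- lie far apart.

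Among the falls next in size, the window chr6:89645001-89646000 read 95.3% in WT and 42.4% in Ezh2 -/-. Its 125 reads in Ezh2 -/- are 58.1% of the WT number, where the median window had 4.43%, 25 at each of 5 CpGs. Windows with so high a ratio were rare, 4 of 8552 over 50%, and 3 of those 4 were called lower.

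Another 9 of the 12 largest falls read 52.2 to 88.5% in WT and 10 to 42.6% in Ezh2 -/-, on 30 to 47 Ezh2 -/- reads each. They lie at chr15:75980001-75981000, chr4:125857001-125858000 near Sh3d21, chr10:60708001-60709000 near Adamts14, chr4:106812001-106813000 near Tceanc2, chr8:124440001-124441000 near BC048644, chr16:17540001-17541000 near Thap7, chr6:90259001-90260000 near Chst13, the Sycp1 promoter and chr2:168795001-168796000 near Zfp64. Apart from Sycp1, the named start sites are 8.27 to 38 kb away, and for the chromosome 15 window the nearest placed start is over 1 Mb off. Most of the falls left some methylation: over all 77 the median share of the WT level that remained was 34.6%.

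Most CpGs of the falls were lower, though not in every window. Of 648 CpGs with reads in both libraries in the 77 windows, 573 (88.4%) were lower in Ezh2 -/- and 52 higher. Most of the CpGs were lower in 75 of the 77 windows, and every one was in 41. The same reads made the calls, which favours lower CpGs, so these counts are a description. The fall at chr11:98182001-98183000, picked after its values were seen, rests on 1 of 5 CpGs. Non-CpG cytosines of these windows read 1.74% in Ezh2 -/- and 1.29% in WT, and 44 of the 77 had no methylated non-CpG read in Ezh2 -/-.

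Among the falls were windows of imprinted loci, which carry methylation on 1 parental copy, and there WT read 32.8 to 45.6% and Ezh2 -/- 0 to 10%. The list of imprinted genes had 7 windows with 2 called lower and none higher, and of all windows at 30 to 70% in WT, the class of these 2, 35 of 66 (53.0%) were called lower, so the falls are not shown to be particular to imprinted loci. The list had pooled reads of 9.56% in WT and 1.89% in Ezh2 -/- (0.996 to 3.55%). At the promoter of Plagl1, a zinc-finger factor expressed from the paternal copy, and of the overlapping Hymai (chr10:12810001-12811000), WT read 37.7% (35.0 to 40.5%, 1183 reads), Eed -/- 34.2%, Ring1B -/- 41.5% and Fbxl10 T/T 79.7%, while 0 of 43 reads in Ezh2 -/- were methylated (0 to 8.20%). The adjusted p was 6.55e-07, and all 17 CpGs read in both libraries were at 0% in Ezh2 -/- against 30 to 50.9% in WT. The count once per MspI fragment, a lower limit, gave 11 reads for those 43 counts, and on these the adjusted p was 0.582 (Fisher's exact test).

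The second was the window of Zrsr1, a paternally expressed gene that lies within Commd1, at chr11:22872001-22873000. It read 35.8% in WT (33.0 to 38.6%, 1105 reads) and 2.04% in Ezh2 -/- (0.561 to 7.14%, 98 reads), with 11 of 12 CpGs lower. Counted once per fragment, its 56 Ezh2 -/- reads gave an adjusted p of 3.87e-06. Eed -/- stood at 9.41%, Ring1B -/- at 28.4% and Fbxl10 T/T at 36.4%. The other windows of the list were low in both libraries: the start site of Grb10 itself read 2.52% in WT and 4.88% in Ezh2 -/-, Gnas 1.29% and 0%, Igf2r 5.05% and 0%, Peg12 1.49% and 2.80%, and Cd81 1.98% and 0%.

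Away from the placed start sites, 3 more falls lay at imprinted loci, and these were picked after their values were seen. In the region of Grb10, a growth-factor receptor adaptor with a maternally methylated control region, 2 adjoining windows fell, 11.4 and 10.4 kb from the placed start site. The window chr11:11925001-11926000 read 38.9% in WT (36.1 to 41.8%) and 2.60% in Ezh2 -/- (0.715 to 8.98%, 77 reads), and chr11:11926001-11927000 read 32.8% in WT (30.7 to 34.9%) and 4.28% in Ezh2 -/- (2.18 to 8.21%, 187 reads). Of their CpGs, 13 of 13 and 30 of 31 were lower. Near Gnas, which encodes a G-protein subunit, chr2:174125001-174126000 read 45.6% in WT (995 reads) and 10% in Ezh2 -/- (3.46 to 25.6%, 30 reads). With reads counted once per fragment, the first Grb10 window stayed called (Fisher's exact test, 36 Ezh2 -/- reads, adjusted p 0.00131), and the calls of the second (36 reads, 0.0561) and of the Gnas window (12 reads, 0.693) were lost. In all 5 imprinted windows the intervals of WT and Ezh2 -/- did not overlap, but those intervals count a read at each CpG it covers.

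**Figure D3:**
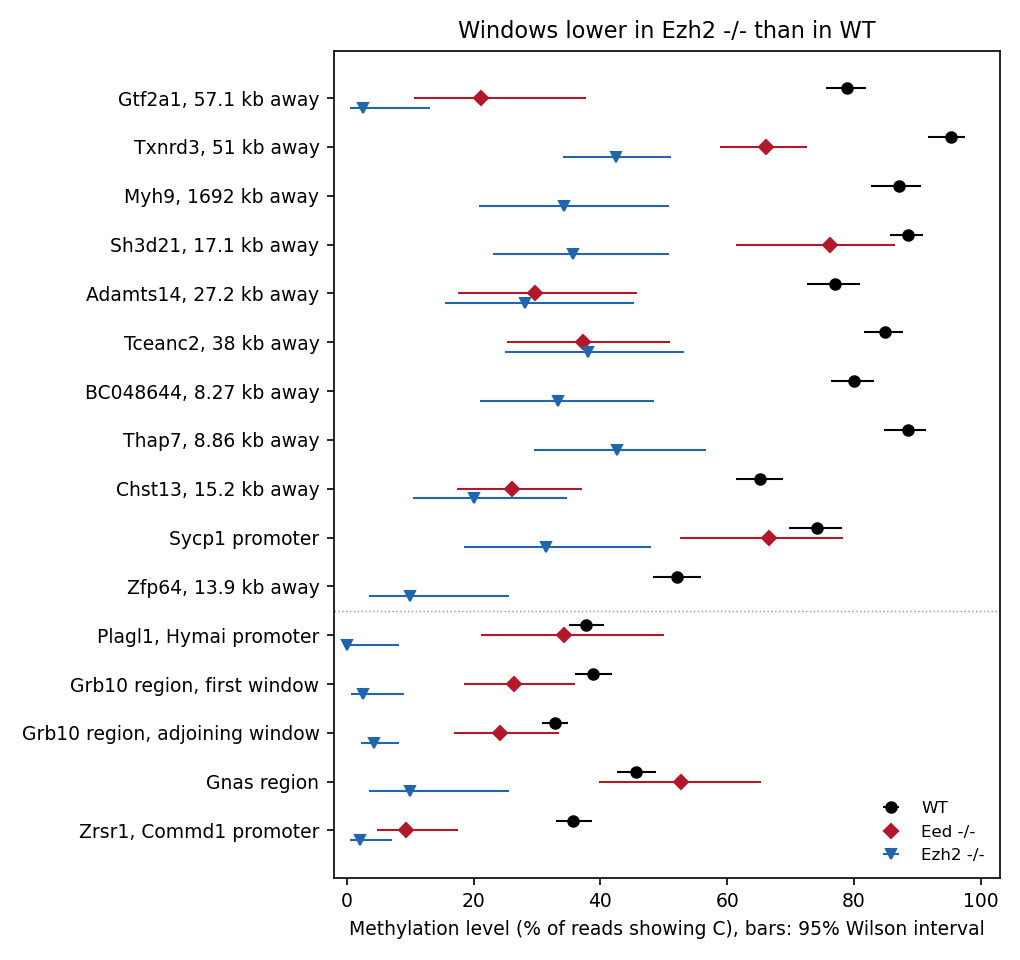
Methylation level (x axis, % of reads showing C, with 95% Wilson intervals for counting error) in WT, Eed -/- and Ezh2 -/- of 11 of the 12 windows with the largest falls, in order of size and labelled by nearest placed start site, and below the dotted line of 5 imprinted windows. Eed -/- is shown where it reached the read minimum. Ezh2 -/- lies to the left of WT in every row, and at Plagl1 and the Gnas region the interval of Eed -/- overlaps that of WT while Ezh2 -/- is at 0% and 10%.

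Whether Ezh2 -/- differed from Eed -/-, the other PRC2 mutant, was tested directly over 7594 windows: 20 were lower in Ezh2 -/- than in Eed -/- (0.263%) and 7 higher (0.0922%). Of the 77 windows that fell against WT, 47 were measured in Eed -/-, and 36 of these had the lower value in Ezh2 -/-, with a median difference of -8.80 points, and 7 passed the test. These 47 were chosen for low Ezh2 -/- reads against WT and the same reads enter the comparison with Eed -/-, which favours a lower Ezh2 -/- value, so the 3 values are a description. Those 7 include Plagl1 (adjusted p 0.00476, Fisher's exact test), the first Grb10 window (0.00386) and the Gnas window (0.0209). For Zrsr1, Ezh2 -/- and Eed -/- read 2.04% and 9.41% and the window was not called. The direct tests count a read at each CpG it covers, and the single count per fragment was not run against Eed -/- or Ring1B -/-. Against WT that count took away the calls of Plagl1 and the Gnas window, so their difference from Eed -/- is not established. Against Ring1B -/-, 78 of 7398 windows were lower in Ezh2 -/- (1.05%) and 6 higher (0.0811%); 46 of the falls were measured there, 15 of them were also lower than Ring1B -/-, and these include Plagl1, Zrsr1 and both Grb10 windows. The same sharing of Ezh2 -/- reads holds for these 46. The 20 also include windows that were low in WT and higher in Eed -/-, such as the promoter of Atf4, a stress-response factor, at 1.24% in WT, 0% in Ezh2 -/- and 31.4% in Eed -/-, and that of Pou4f1, a neural factor, at 3.20%, 1.75% and 32.3%; these 2 were picked after their values were seen. The direct comparison has 1 library on each side, both without a strain label.

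Germline genes, which are methylated in somatic cells, had 3 measured windows, with 1 called lower, Sycp1, in a WT class (70% or more) where 27 of 55 windows (49.1%) were. At the promoter of Sycp1, a protein of the synaptonemal complex, WT read 74.1% (69.8 to 78.05%, 425 reads), Eed -/- 66.7%, Fbxl10 T/T 78.7% and Ezh2 -/- 31.4% (18.6 to 48.0%, 35 reads), with an adjusted p of 5.29e-05. Only 4 of its 7 CpGs were lower, and counted once per fragment (15 reads) the adjusted p was 0.226. Ddx4, a germ-cell RNA helicase, read 17.8% in WT and 11.1% in Ezh2 -/- and was not called, and Tdrd5, of the piRNA pathway, read 1.14% and 1.42%. Other promoter windows that fell were those of Lhcgr, the luteinizing hormone receptor (76.6% to 40.5%), Scnn1b, a sodium channel subunit (40.5% to 8.33%), Vmn2r29, a pheromone receptor (57.8% to 30.9%), Lonp2, a peroxisomal protease (24.8% to 0%, 53 reads), and Sf3b6, a splicing factor (25.1% to 0%, 35 reads); they follow from the call and not from the naming rule. At Lhcgr 4 of 7 CpGs were lower and 3 higher. In the Lonp2 window 6 of 10 CpGs were lower, with a median CpG of 1.43% and a highest of 92.65% in WT, so its WT level rests on few CpGs. At Lonp2 and Sf3b6, Eed -/- and Ring1B -/- also read 0%, so WT stood apart from the 3 Polycomb mutants there, and in Fbxl10 T/T Lonp2 was at 21.4% and Sf3b6 at 1.73%.

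The 20 rises were also read CpG by CpG. Of 230 CpGs read in both libraries in these windows, 96 (41.7%) were higher in Ezh2 -/- and 69 lower, most CpGs were higher in 6 of the 20 windows, and in none were all. In 11 of the 20 the median CpG of Ezh2 -/- was at 0%. These CpG counts cannot be set against those of the falls. The risen windows averaged 7.62% in WT and only 34.1% in Ezh2 -/- (corrected), on few reads per CpG. Many CpGs at 0% would then be seen even in an even rise, while in a fall such a CpG nearly always counts as lower. Non-CpG cytosines of the risen windows read 8.47% in Ezh2 -/- and 1.28% in WT, against 1.95% and 0.579% over all windows, and 11 of the 20 were over 5%, where 884 of all windows (10.3%) were. With the non-CpG level of each window itself removed, a setting added after seeing the data, 12 of the 20 rises and 73 of the 77 falls stayed called. The difference became 5.32 points at Dusp1, a phosphatase gene picked after its values were seen, and 14.96 at Neurog1, both no longer called. As a mean over CpGs 7 of the 20 rises and 66 of the 77 falls stayed called.

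**Figure D4:**
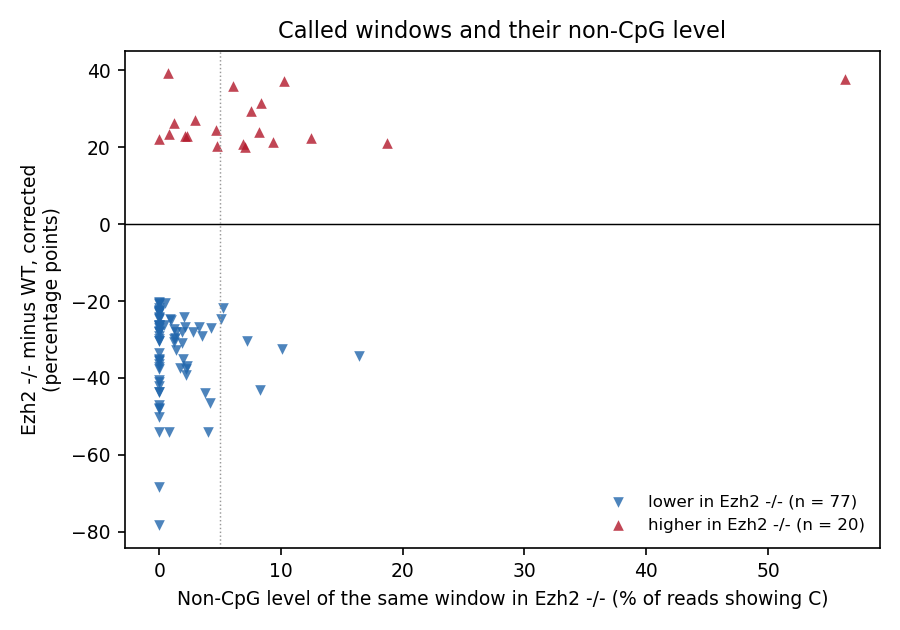
Corrected difference between Ezh2 -/- and WT (y axis, percentage points) of the 97 called windows against the non-CpG level of the same window in Ezh2 -/- (x axis, % of reads showing C), with a dotted line at 5%. Of the windows higher in Ezh2 -/- (red), 11 of 20 lie to the right of the line, and of those lower (blue), 6 of 77 do.

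The largest rise was chr1:19204001-19205000, at 30.1% in WT (26.2 to 34.4%, 481 reads) and 69.2% in Ezh2 -/- (53.6 to 81.4%, 39 reads), with 8 of 9 CpGs higher and a non-CpG level of 0.685%. Counted once per fragment it had 14 Ezh2 -/- reads and lost its call (adjusted p 0.272, Fisher's exact test). Fbxl10 T/T read 65.7% there. Next came chr16:15085001-15086000, at 18.2% and 55.9%, where non-CpG cytosines read 56.4% in Ezh2 -/- and 12.5% in WT, and with the non-CpG level of the window itself removed the difference was -7.62 points. Next in size was the window of Lhx1, a LIM homeobox factor of kidney and head development, at chr11:84338001-84339000, whose start site lies 36 bases outside it. It read 5.41% in WT (3.35 to 8.60%, 296 reads) and 42.9% in Ezh2 -/- (30 to 56.7%, 49 reads), and 19 of its 21 methylated reads fell on 1 CpG, without which the window read 7.41% on 27 reads. The fourth, chr12:100883001-100884000, rose from 30.9% to 66.7% by summed reads and was lower by 15.5 points as a mean over CpGs, so that its direction depends on how CpGs are weighted.

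The remaining 8 of the 12 largest rises read 0.442 to 16.2% in WT and 24.5 to 40.7% in Ezh2 -/-, on 38 to 59 reads. They were chr8:12386001-12387000, at 8.86% and 40.7% with Eed -/- at 3.75% and called higher than Eed -/- in the direct test (adjusted p 6.67e-05, Fisher's exact test), the window of Gm26653 on chromosome 6, chr11:97408001-97409000, a window on chromosome 18, chr2:31496001-31497000 next to Prdm12, a neural regulator, chr10:79861001-79862000, chr11:5421001-5422000 next to Xbp1, a factor of the unfolded protein response, and chr2:18531001-18532000. The window at Xbp1 read 0.442% in WT and 24.5% in Ezh2 -/- (14.6 to 38.1%, 49 reads), and its 12 methylated reads stood in 2 neighbouring CpGs at 60.0% each while the other 9 CpGs were at 0%. A similar case, picked after its values were seen, is chr14:57396001-57397000: of its 17 CpGs only the one in capitals above was methylated in Ezh2 -/-, with 49 of 50 reads (98%) against 1 of 127 in WT (0.787%), and the window also read 19.15% in Eed -/-, 19.9% in Ring1B -/- and 0% in Fbxl10 T/T.

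**Figure D5:**
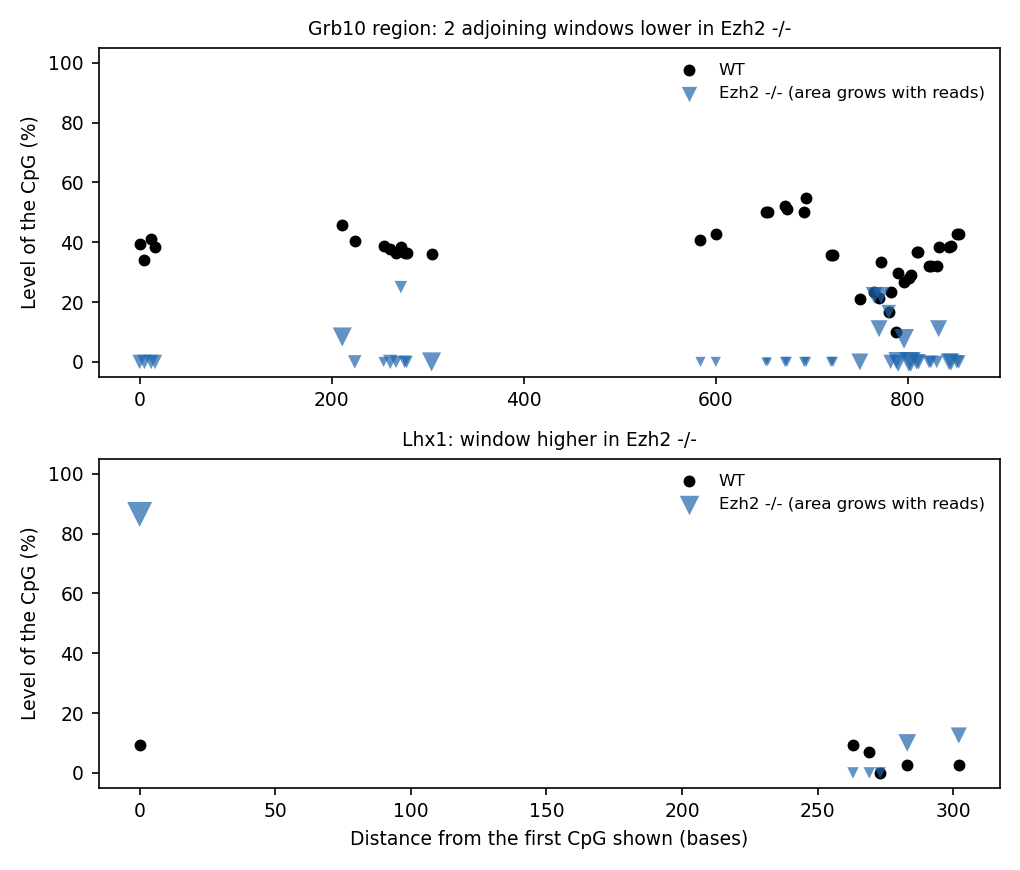
Level of single CpGs (y axis, %) in WT and Ezh2 -/- along 2 adjoining windows of the Grb10 region (top) and the Lhx1 window (bottom), by distance from the first CpG shown (x axis, bases); marker area for Ezh2 -/- grows with its reads. In the Grb10 region nearly all CpGs of Ezh2 -/- lie below WT, and at Lhx1 the rise stands on 1 CpG at 86.4%.

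The Polycomb-bound developmental regulators, the genes that PRC2 covers in ES cells, were mostly low in Ezh2 -/-. Of 37 windows at promoters of 34 of these genes, 2 were called higher (Lhx1 and Neurog1), where 14 of all 8161 windows under 10% in WT (0.172%) were higher. All 37 were under 10% in WT, so none could be called lower. Their pooled reads gave 2.46% in WT and 4.52% in Ezh2 -/- (3.82 to 5.33%), against 2.13% and 2.62% over all windows under 10% in WT, beside non-CpG backgrounds of 1.02% and 2.10% of the 2 libraries. Eed -/- gave 3.80%, Ring1B -/- 3.86% and Fbxl10 T/T 41.0%. The median corrected difference was -0.342 points, beside -1.35 over all windows, and 34 of the 37 were under 10% in Ezh2 -/-, as were 7901 of the 8161. In Fbxl10 T/T, 24 of the 37 stood at 30% or more. At Neurog1, a neurogenic bHLH factor (chr13:56353001-56354000), WT read 4.87%, Ezh2 -/- 27.7% (16.9 to 41.8%, 47 reads), Eed -/- 15.6%, Ring1B -/- 9.52% and Fbxl10 T/T 56.5%, with a non-CpG level of 12.4% in Ezh2 -/- and 2 of 7 CpGs higher, 4 lower.

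Of the list's windows with most Ezh2 -/- reads, that of Nkx6-1, a homeobox factor of the pancreas and spinal cord, read 1.55% in WT and 1.37% in Ezh2 -/- on 219 reads, with 29.8% in Fbxl10 T/T. Foxl2, a factor of the ovary, read 1.16% in WT, 2.17% in Ezh2 -/- and 55.4% in Fbxl10 T/T, and Tlx1, a homeobox factor of the spleen, 5.77%, 7.69% and 61.4%. Simc1, which entered the list although it is no developmental factor, read 1.17%, 5.37% and 1.14%. None of these 4 was called in Ezh2 -/-. The 4 measured Hox windows gave no call: Hoxd11 read 3.95% in WT and 1.28% in Ezh2 -/-, Hoxd13 5.08% and 0%, Hoxa13 0.551% and 0%, and Hoxa6 14.2% and 20% on 30 reads with a non-CpG level of 12.9%.

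The windows that gain methylation in Fbxl10 T/T were also read as a whole. Among windows under 10% in WT, 1577 were called higher in Fbxl10 T/T, where 25.7% of the 20312 windows tested were, and their median uncorrected level was 2.86% in Ezh2 -/-, beside 3.04% in WT, 2.63% in Eed -/- and 58.7% in Fbxl10 T/T. In Ezh2 -/-, 3 of the 1577 were called higher (0.190%), and of the 6164 windows within 5 points of WT in Fbxl10 T/T 11 were higher (0.178%). Both sets were under 10% in WT, so none of their windows could be called lower. Both comparisons use the same WT reads.

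Genes of the Polycomb complexes themselves gave no call in 13 windows, at 0.285 to 4.29% in WT and 0 to 9.30% in Ezh2 -/-. Suz12, a core subunit of PRC2, read 1.70% in WT and 0 of 33 reads in Ezh2 -/-. Kdm2b, the gene of FBXL10, read 2.89% and 2.22%. Jarid2, which helps to recruit PRC2, read 2.57% and 2.22% in the deeper of its windows. The deepest of the others, the PRC1 genes Bmi1 and Pcgf5, stood at 5.42% and 3.97% in Ezh2 -/- and at 3.04% and 2.00% in WT, and the histone-binding Rbbp4 at 0% and 4.29%. The promoters of Ezh2 and Eed could not be placed and that of Rnf2, the gene of Ring1B, was in no measured window, so these are not analysed here and the knockout could not be checked from the data.

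The genes of DNA methylation enzymes were low in both libraries, with no call in 4 windows. Dnmt3a read 1.01% in WT and 2.80% in Ezh2 -/- in the deeper of its windows. Dnmt3b read 0.446% and 1.14%, and Tet2, which oxidises methylated cytosine, 0.388% and 0%. Housekeeping genes had 9 windows, none called, with pooled reads of 1.44% in WT and 1.38% in Ezh2 -/-. The deepest of them, Hprt of purine salvage, Polr2a of RNA polymerase II, Psmb4 of the proteasome and Atp5b of ATP synthase, read 1.83%, 2.06%, 3.23% and 0% in Ezh2 -/- in that order. Of the ES cell factors, Klf2 read 3.76% in WT and 3.36% in Ezh2 -/- in its deeper window, and Klf4 1.81% and 7.58% on 66 reads, neither called. Twist2, a mesenchymal factor taken as a fibroblast gene, read 3.31% and 7.50% and was not called.

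Non-CpG methylation before A, which the Dnmt3 enzymes lay down in ES cells, stood out from background in WT and not in Ezh2 -/-. In WT, cytosines before A read 1.85%, 1.14 points above those before C or T. In Ezh2 -/- they read 2.07%, -0.0388 points from those before C or T, beside 0.138 points in Eed -/-, -0.289 in Ring1B -/- and 0.383 in Fbxl10 T/T. These are shares over all non-CpG reads of 1 library each, with no spread between cultures.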

How the data were processed

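Reduced representation bisulfite tables of 5 mouse ES cell libraries were used, 1 per genotype. Per the submitters' processing notes, BSMAP 2.74 and build mm9 were used; trimming and removal of duplicates are not given in the sources used here. Per the file headers, the deposited counts are reads showing C and reads showing C or T at each cytosine. The deposited expected counts are the latter scaled by the authors for variants on the opposite strand, and the deposited fraction is their ratio. CpGs are listed on the + strand only. Totals in the main results are the raw counts; at 7 cytosines of WT the count stands at its limit of 65535.

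Counts were summed in 1-kb windows (CpGs outside CCGG, at least 5 CpGs and 30 reads in each library) and corrected as (m - b)/(1 - b), with b the share of non-CpG reads showing C in that library; corrected levels can fall below 0. Fisher's exact test (two-sided, scipy 1.17.1) compared the reads of each window, with Benjamini-Hochberg adjustment by statsmodels 0.14.6, and windows were called at 20 points and an adjusted p under 0.05. Intervals are 95% Wilson intervals for counting error only. Reads covering several CpGs are counted at each, so intervals are too narrow and p-values too small. A setting with reads counted once per fragment was added. It sums, over the MspI fragments of a window, the highest read number at any CpG, and keeps the level of the window. Read numbers given for it are lower limits. CpG reads outside CCGG numbered 25424859 in WT and 989848 in Ezh2 -/-, so the Ezh2 -/- reads limit the precision. No deposited sample column was left without a group.

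Promoters were placed by sequence: 9524 of 32619 RefSeq promoters (GRCm38) matched the bases spelled out in the tables with an exact seed of 18 bases, at least 40 known bases and at least 98% identity. No coordinates were moved between builds, and exon, intron and UTR annotation of mm9 was not used here. Named were the 12 largest falls and rises, the windows of Ezh2, Eed, Suz12, Rnf2 and Kdm2b, and from each gene list the 4 windows with most Ezh2 -/- reads and any called; exceptions are marked, and 1 of the largest falls is not reported here. The members and lists were chosen with earlier results of these data known. Tests were checked on simulated data with independent counts, which cannot show the effect of counting a read at several CpGs. Alternatives were other minimums, window sizes, backgrounds, weightings and depths.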

Additional observations from a re-analysis of the deposited data

Results flagged for a closer look

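CpGs inside CCGG, which the comparisons leave out, read 32.9% in Ezh2 -/- (32.7 to 33.0%) in the windows under 10% in WT, where WT read 22.6% at the same class of site and the CpGs outside CCGG read 2.13% in WT and 2.62% in Ezh2 -/-. The value stands out because it is a signal outside the main measurement that lies above the control. Fbxl10 T/T read 29.6%, Ring1B -/- 35.5% and Eed -/- 34.1% there. In windows at 70% or more in WT the same sites read 82.7% in WT and 67.7% in Ezh2 -/-.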

How the results depend on the processing

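The direction of the excess of falls was the same in all settings run at 20 points or more; the main counts are 77 lower and 20 higher, the level over window reads in Ezh2 -/- 1.13%, and the median window difference -1.35 points. With at least 50 reads there were 19 lower and 4 higher, a level of 0.805%, a median of -1.07, 0.0565% of windows under 10% in WT higher, and in the gene lists 1 lower and 0 higher. With at least 100 reads there were 5 and 2, 0.658%, -0.802, and 66.7% of windows at 70% or more in WT lower, which is 2 of 3. Both of these had many Ezh2 -/- reads beside WT, at 58.1% and 205.6% of the WT number, where the median window had 4.43%. This setting also gave 0.0548% of windows under 10% in WT higher, 0 and 0 in the lists, and 2 windows different from Eed -/-, where the main count is 27. At least 3 CpGs gave a level of 1.38%, and at least 10 CpGs gave 25 lower and 11 higher, 0.834%, -1.13, 66.7% of the windows at 70% or more lower and 0 list windows higher. With CCGG kept there were 345 lower and 168 higher, a level of 12.5%, a median of 2.41 points (reversed), 23.5% of the windows at 30 to 70% lower, 0.965% of those under 10% higher, and 60 windows different from Eed -/-. Without background correction the level was 3.21% and the median -0.236, and with the background of non-CpG cytosines not before A the median was -1.67. A mean over CpGs gave 43 higher, with 7 of the 20 rises and 66 of the 77 falls among the calls, a level of 2.16%, a median of -1.52, 0.525% of the windows under 10% higher, 0 list windows higher, and -15.5 points for the fourth rise, chr12:100883001-100884000 (reversed). Windows of 2 kb gave a level of 1.30%, and windows shifted by 500 bases 13 higher. WT thinned to Ezh2 -/- gave 26 lower and 7 higher, -1.12, 17.6% of the windows at 30 to 70% and 19.2% of those at 70% or more lower, 0.0741% of those under 10% higher, and 1 list window higher. At 10 points 125 windows were higher, and at 30 points 37 were lower, 5 higher and 1 list window higher.

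The next 3 settings were chosen after seeing the data. CpGs with a read in both libraries gave a median of -1.26. The non-CpG level of the same window gave a level of 1.68%, a median of -0.849, 0.0983% of windows under 10% higher, 1 list window higher, and -7.62 points for the second rise, chr16:15085001-15086000 (reversed). Reads counted once per fragment gave 18 lower and 6 higher, 6.06% of the windows at 30 to 70% and 21.8% of those at 70% or more lower, 0.0735% of those under 10% higher, and 1 list window lower. Fewer windows or fewer reads are tested under the read and CpG minimums, the thinning and the single count of reads; for the other settings the cause was not tested. The 12 largest falls were called in every setting in which they were measured, except that 10 were with WT thinned and 8 with reads counted once. Of these 12, only 1 was measured with at least 50 reads, 1 with at least 100 and 2 with at least 10 CpGs. Those minimums drop windows and leave the reads of the rest unchanged, so they could hardly change a call. Gene lists were not recomputed for 2-kb and shifted windows, and named windows not for shifted windows, since those windows differ. Depth limits the calls: the median window had 60 Ezh2 -/- reads. No paired analysis was possible because each genotype has 1 library.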
